A study of Mus musculus with 16 samples.

Results

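The 5 genes of the Ikaros family, Ikzf1 to Ikzf5, were followed in TCF1+CD8+ T cells exposed to PGE2 and stimulated through the T cell receptor. They were taken by gene name from a count table of 54532 mouse genes, and all 5 had counts in each of the 16 samples. Naive CD8+ T cells from spleens of C57BL/6J mice had been activated repeatedly in culture over 4 days until they were TCF1+CD8+. The cells then stood for 1 h with PGE2 at 100 ng/ml or without it (untreated), and for a further 4 h in IL-2 at 85 U/ml, either alone (unstimulated) or with anti-CD3/CD28 beads at 1 bead per cell (stimulated). This gave 4 groups of 4 replicates, unstimulated untreated, unstimulated PGE2, stimulated untreated and stimulated PGE2, which share the strain, the culture and the IL-2. The study made these cells as a stand-in for stem-like T cells of tumours, and asked what PGE2 does to their response to stimulation. All 7 markers of CD8+ T cells that were checked, Tcf7 among them, were expressed in each sample.

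Ikaros family proteins are zinc-finger transcription factors of lymphocytes. An array of fingers towards the amino terminus binds DNA, and a pair of fingers at the carboxy end joins family members to each other, so that the mixture of members in a cell sets which dimers can form. They recruit chromatin-remodelling and deacetylase complexes and can repress or support transcription. Ikzf1 encodes Ikaros, the founding member, needed for lymphocyte development. Ikzf3 encodes Aiolos, which is best known from B cells and is also found in activated T cells. Ikzf2 encodes Helios and Ikzf4 encodes Eos, both known from regulatory T cells, where Eos is a partner of Foxp3. Ikzf5 encodes Pegasus, the most distant relative of the 5.

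The kinship of Ikzf1 to Ikzf4 is visible in the codons of their fingers. The second finger of the DNA-binding array is shown, because DNA contact rests on this array. Each stretch is the coding strand in GRCm38, read 5′ to 3′ within 1 coding exon, and the capitals mark the codons of the paired cysteines and paired histidines that hold the zinc.
Ikzf1, chr11:11754024-11754086, plus strand, exon 6: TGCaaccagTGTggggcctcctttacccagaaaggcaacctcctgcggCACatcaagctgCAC
Ikzf2, chr1:69570581-69570643, minus strand, exon 5: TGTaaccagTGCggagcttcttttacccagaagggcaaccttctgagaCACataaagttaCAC
Ikzf3, chr11:98488940-98489002, minus strand, exon 5: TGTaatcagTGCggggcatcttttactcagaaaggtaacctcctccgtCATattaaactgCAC
Ikzf4, chr10:128640229-128640291, minus strand, exon 5: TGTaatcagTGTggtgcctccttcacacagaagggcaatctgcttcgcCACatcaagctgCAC
Ikzf5, chr7:131392501-131392563, minus strand, exon 4: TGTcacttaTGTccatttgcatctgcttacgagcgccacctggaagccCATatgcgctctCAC

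Over these 63 bases the first 4 members were 76.2% to 84.1% identical to each other, whereas Ikzf5 was 41.3% to 47.6% identical to any of them. Fingers were compared by their order in each gene, without an alignment. The 66-base finger is match 3 in Ikzf5 but match 4 in Ikzf1, Ikzf2 and Ikzf4. Match 2 of Ikzf5 may therefore not correspond to theirs, and its lower identity is not a measure of kinship. Despite the kinship of the first 4, the longest run of bases that any pair of members shared over their transcripts was 32, between Ikzf2 and Ikzf4, which is shorter than the reads.

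**Figure D1:**
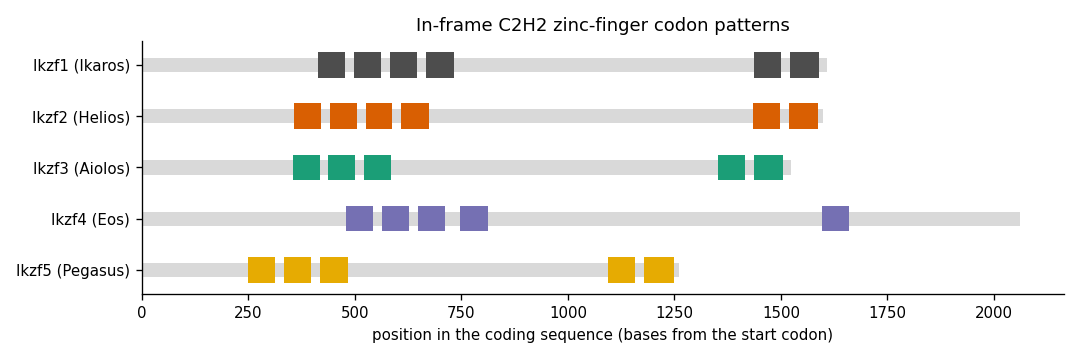
Position of the in-frame codon patterns of C2H2 zinc fingers (coloured) along the coding sequence (grey) of 1 transcript of each Ikaros family gene, in bases from the start codon. Ikzf1 and Ikzf2 show 6 matches to the strict pattern and the other genes 5, in an array towards the start and a group near the end. For Ikzf4 only the finger at bases 1597 to 1659 matches near the end. A finger that departs from the pattern is not drawn.

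The genes lie at chr11:11685003-11772926 (Ikzf1), chr1:69531214-69687245 (Ikzf2), chr11:98464902-98546031 (Ikzf3), chr10:128630843-128645991 (Ikzf4) and chr7:131388652-131410521 (Ikzf5) of GRCm38. Ikzf1 and Ikzf3 share no exon bases with another gene. Ikzf2 shares 1.24% of its exon bases with the antisense gene Gm29114, which had 98 counts over all samples, and Ikzf4 shares 0.617% with Gm26876, which had 118. A further 7 genes overlap the span of a member without sharing its exon bases and had 5 to 402 counts each. Ikzf5 is different, as 81.3% of its exon bases lie opposite exons of Pstk, the gene of a kinase for selenocysteine synthesis. Pstk had 8031 counts over the 16 samples, 354% of those of Ikzf5. Gm44624, also on the opposite strand, shares 3.2% of the exon bases of Ikzf5 and had 31 counts. Because nothing states whether strand was used in counting, all values of Ikzf5 are uncertain.

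By FPKM, Ikaros transcripts made up most of the family mRNA in every sample, and PGE2 went with a larger share of Helios. Levels of different genes were compared as FPKM, a count scaled by gene length and library size, each taken as a percent of the summed FPKM of the 5 genes in the sample. Ikzf1 held 71.6% ± 1.96 (SD, n = 4) of the family in unstimulated untreated cells, 64.0% ± 1.85 in unstimulated PGE2 cells, 76.2% ± 2.48 in stimulated untreated cells and 66.6% ± 2.60 in stimulated PGE2 cells. Ikzf2 held 9.62% ± 1.78, 19.7% ± 1.69, 5.12% ± 1.08 and 15.2% ± 2.82 in the same order of groups. The lowest Helios share of a PGE2 sample was 12.5%, above the highest of an untreated sample at 11.7%.

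Aiolos and Helios exchanged places in the order of levels. By FPKM the order was Ikzf1, Ikzf2, Ikzf3, Ikzf4, Ikzf5 in all 8 PGE2 samples, and Ikzf1, Ikzf3, Ikzf2, Ikzf4, Ikzf5 in 7 of the 8 untreated samples. In the remaining sample, stimulated untreated replicate 3, Ikzf4 at 4.62 FPKM also stood above Ikzf2 at 4.24 FPKM. The ratio of Ikzf2 to Ikzf3 FPKM was 0.644 ± 0.144 in unstimulated untreated cells, 1.82 ± 0.274 in unstimulated PGE2 cells, 0.401 ± 0.0781 in stimulated untreated cells and 1.46 ± 0.328 in stimulated PGE2 cells (SD, n = 4 each). The ratio never exceeded 0.834 without PGE2 and never fell under 1.18 with it. Ikzf3 held 15.03% ± 0.669, 10.9% ± 0.837, 12.7% ± 0.499 and 10.4% ± 0.378 of the family in the group order given above. Ikzf4 held 2.92% ± 0.647, 4.89% ± 0.566, 4.90% ± 1.17 and 6.93% ± 1.15, and Ikzf5 stayed between 0.570% and 1.21% in each sample.

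**Figure D2:**
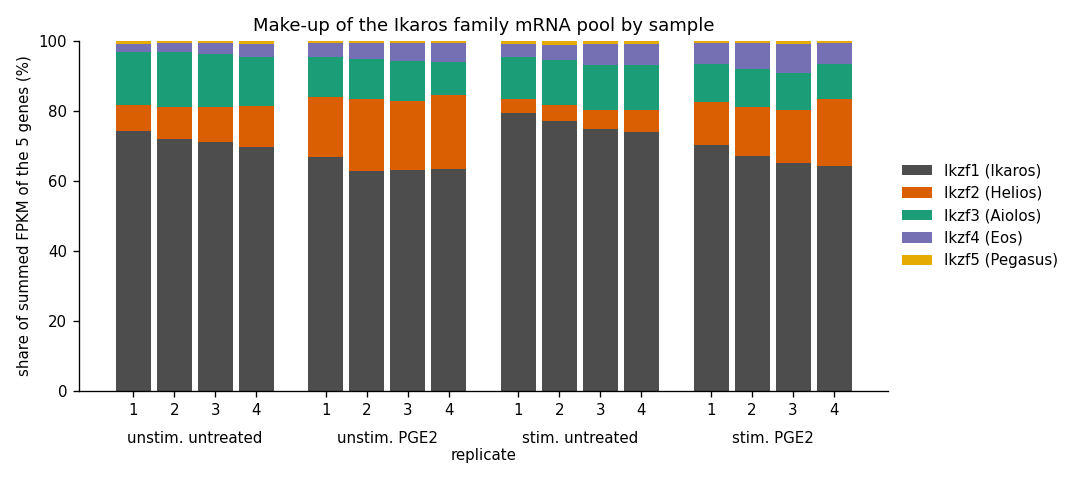
Share of each Ikaros family gene in the summed FPKM of the 5 genes (percent), 1 bar per sample with replicates grouped by condition. The Helios segment is 17.2% to 21.0% in unstimulated PGE2 samples and 12.5% to 19.1% in stimulated PGE2 samples, against 7.42% to 11.7% and 4.06% to 6.49% in their untreated counterparts.

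The summed FPKM of the family was 114 ± 10.9 in unstimulated untreated cells and 109 ± 11.2 in unstimulated PGE2 cells, and it was 83.7 ± 5.85 and 88.2 ± 3.12 in the stimulated groups without and with PGE2. Each stimulated sample lay below each unstimulated one. With or without PGE2 the family sums overlapped, so the change in make-up with PGE2 was not accompanied by a separation of the sums.

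Within a gene, levels were followed as CPM, counts scaled to library size with TMM factors, and differences were tested with the edgeR quasi-likelihood test with Benjamini-Hochberg adjustment over all genes tested. A gene passed the test at an adjusted p below 0.05, and a DEG also differed by at least 2-fold. Nothing states whether the replicates came from separate mice or cultures, so p-values measure the spread between these samples. The comparisons that have a group in common, such as PGE2 in stimulated cells and stimulation without PGE2, share those samples and are not independent.

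Helios was the member that moved most with PGE2. In stimulated untreated cells Ikzf2 stood at 44.4, 44.8, 52.4 and 66.6 CPM in replicates 1 to 4, and in stimulated PGE2 cells at 137, 149, 159 and 211 CPM. In unstimulated untreated cells it stood at 116, 130, 129 and 152 CPM, and in unstimulated PGE2 cells at 259, 270, 237 and 263 CPM. Every PGE2 sample thus lay above every untreated sample of the same stimulation state. In bulk RNA a change in the number of cells that express a gene and a change in its RNA per cell cannot be told apart.

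In stimulated cells PGE2 raised Ikzf2 by 1.66 on the log2 scale (SE 0.165, 3.17-fold, edgeR adjusted p = 0.000375), which made it a DEG. Its log2 fold change stood at percentile 99.7 of the 13922 genes tested. Within replicate numbers the log2 ratio of PGE2 to untreated CPM lay between 1.60 and 1.73. In unstimulated cells PGE2 raised it by 0.98 (SE 0.0815, 1.98-fold, edgeR adjusted p = 1.19e-05), at percentile 98.2 of 14505 genes and just short of the fold threshold of a DEG. All 18 alternative analyses of each comparison kept Ikzf2 past the test.

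Stimulation moved Helios the other way. Without PGE2, Ikzf2 fell by 1.36 on the log2 scale with stimulation (SE 0.121, 2.57-fold, edgeR adjusted p = 7.61e-07) and was a DEG. With PGE2 it fell by 0.64 (SE 0.113, edgeR adjusted p = 0.000531), from a mean of 257 ± 14.4 CPM to 164 ± 32.4 CPM (SD, n = 4 each). In the order of group means the stimulated PGE2 cells came next to the unstimulated untreated cells at 132 ± 14.9 CPM, and the samples of these groups overlapped, as the lowest of the former was 137 CPM and the highest of the latter 152 CPM. Beads alone therefore left Helios at its lowest level, 52.1 ± 10.4 CPM, and PGE2 alone at its highest.

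**Figure D3:**
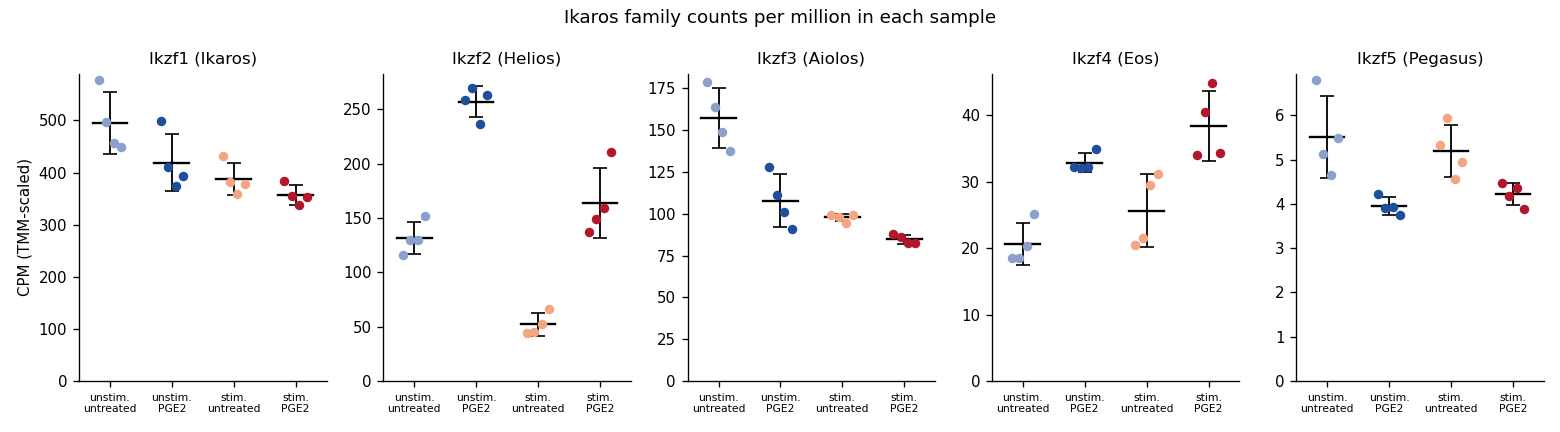
TMM-scaled CPM of each Ikaros family gene in the 16 samples (points, replicates 1 to 4 from left to right), with the mean (bar) and SD (whiskers) of the 4 samples per group and a separate linear axis from 0 for each gene. Helios runs from 44.4 to 66.6 CPM in stimulated untreated samples and from 237 to 270 CPM in unstimulated PGE2 samples, and Aiolos is highest in the unstimulated untreated samples, at 138 to 179 CPM.

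Eos, the other member known from regulatory T cells, was also higher with PGE2, at a much lower level. Ikzf4 stood at 18.5, 18.5, 20.3 and 25.2 CPM in unstimulated untreated cells and at 32.2, 32.1, 32.2 and 35.0 CPM in unstimulated PGE2 cells. It stood at 20.4, 21.6, 29.5 and 31.2 CPM in stimulated untreated cells and at 34.0, 40.5, 44.9 and 34.3 CPM in stimulated PGE2 cells. PGE2 samples lay above untreated samples in both states, with a narrow gap in stimulated cells.

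In unstimulated cells PGE2 raised Ikzf4 by 0.69 on the log2 scale (SE 0.10, 1.61-fold, edgeR adjusted p = 0.000411), and the call held in all 18 alternatives. In stimulated cells the difference was 0.59 (SE 0.156, 1.51-fold, edgeR adjusted p = 0.0402). That call was lost on leaving out any 1 of stimulated untreated replicates 1, 2 and 3 or stimulated PGE2 replicates 2, 3 and 4. Adjusted p then lay between 0.0517 and 0.122. The call held in 11 of 18 alternatives, with the lowest adjusted p under the replicate number as a block (edgeR adjusted p = 0.00105). Stimulation gave log2 differences of 0.29 without PGE2 (SE 0.143, edgeR adjusted p = 0.0913) and 0.24 with PGE2 (SE 0.10, edgeR adjusted p = 0.0561), and the samples overlapped in both. With the replicate number as a block, the difference without PGE2 passed (edgeR adjusted p = 0.00546, with 0.00546 to 0.298 over its alternatives).

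Aiolos went down with PGE2 and with stimulation. Ikzf3 stood at 179, 164, 149 and 138 CPM in unstimulated untreated cells and at 128, 111, 101 and 90.6 CPM in unstimulated PGE2 cells. It stood at 99.0, 98.2, 94.6 and 99.5 CPM in stimulated untreated cells and at 87.8, 86.3, 82.5 and 82.5 CPM in stimulated PGE2 cells. The stimulated samples were close to each other, with a coefficient of variation of 2.27% and 3.19%, whereas the unstimulated ones varied by 11.5% and 14.8%.

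In unstimulated cells Ikzf3 fell by 0.53 on the log2 scale with PGE2 (SE 0.101, edgeR adjusted p = 0.00254). In stimulated cells it fell by 0.20 (SE 0.0552, edgeR adjusted p = 0.0479), a call that was lost on leaving out any 1 of the 8 samples (adjusted p between 0.0604 and 0.147) although no samples of the groups overlapped. It held in 5 of 18 alternatives in all, with adjusted p up to 0.154. The lowest came with the replicate number as a block (edgeR adjusted p = 0.00270). Within replicate numbers the log2 ratio of PGE2 to untreated CPM lay between −0.27 and −0.17. With stimulation it fell by 0.70 without PGE2 (SE 0.0812, edgeR adjusted p = 7.51e-06) and by 0.33 with PGE2 (SE 0.0944, edgeR adjusted p = 0.0100). The lowest Aiolos level was thus found where both treatments met, at 84.8 ± 2.70 CPM (SD, n = 4), unlike Helios, for which the treatments went in opposite directions.

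Ikaros itself had smaller log2 differences than Helios and Aiolos in each of the 4 pairwise comparisons. Ikzf1 stood at 578, 498, 456 and 449 CPM in unstimulated untreated cells and at 498, 410, 373 and 394 CPM in unstimulated PGE2 cells. It stood at 432, 381, 359 and 377 CPM in stimulated untreated cells and at 383, 354, 337 and 353 CPM in stimulated PGE2 cells. Neighbouring groups in the order of means overlapped at each step.

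Only stimulation without PGE2 gave a difference that passed for Ikzf1 among the 4 pairwise comparisons, where it fell by 0.37 on the log2 scale (SE 0.0947, edgeR adjusted p = 0.00419). With PGE2 the log2 differences were −0.22 in unstimulated cells (SE 0.0945, edgeR adjusted p = 0.104) and −0.11 in stimulated cells (SE 0.0723, edgeR adjusted p = 0.345). Ikzf1 was lower with PGE2 in 4 of 4 replicate numbers in both states, and with the replicate number as a block the difference in unstimulated cells passed (edgeR adjusted p = 9.34e-05, with 9.34e-05 to 0.312 over its alternatives). Stimulation with PGE2 gave −0.21 (SE 0.0887, edgeR adjusted p = 0.0552), a difference that passed in 9 of 18 alternatives (adjusted p from 0.00241 to 0.109).

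Pegasus had the lowest measured level of the family, with 91 to 201 counts per sample. That rank is as uncertain as its values, because its exons lie opposite those of Pstk. Ikzf5 stood at 6.79, 5.13, 4.64 and 5.48 CPM in unstimulated untreated cells and at 4.21, 3.91, 3.94 and 3.74 CPM in unstimulated PGE2 cells. It stood at 5.32, 5.95, 4.56 and 4.94 CPM in stimulated untreated cells and at 4.47, 4.18, 4.37 and 3.88 CPM in stimulated PGE2 cells. PGE2 samples lay below untreated samples in both states.

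In unstimulated cells Ikzf5 fell by 0.45 on the log2 scale with PGE2 (SE 0.136, edgeR adjusted p = 0.0272). The call was lost on leaving out any 1 of unstimulated untreated replicates 1, 2 and 4 or unstimulated PGE2 replicates 2, 3 and 4. Adjusted p then lay between 0.0529 and 0.0785. It held in 9 of 16 alternatives (adjusted p up to 0.129), with the lowest adjusted p under the replicate number as a block (edgeR adjusted p = 0.00492). In stimulated cells the difference was −0.29 (SE 0.13, edgeR adjusted p = 0.185), and with stimulation it was −0.09 without PGE2 and 0.12 with PGE2 (edgeR adjusted p = 0.624 and 0.440), signs that each turned under 1 alternative. Pstk, whose exons lie opposite, gave log2 differences of −0.08 with PGE2 in unstimulated cells and 0.02 in stimulated cells (edgeR adjusted p = 0.538 and 0.949). It fell by 0.43 with stimulation without PGE2 (edgeR adjusted p = 0.00449).

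The counts of members that passed were read against the shares of all tested genes that did. With PGE2 in stimulated cells 3 of 5 members passed, 2 higher and 1 lower, where 9.84% of all tested genes passed, 6.04% higher and 3.8% lower. With the replicate number as a block the same number of members passed, against 39.8% of all genes, and when 1 sample was left out 1 to 2 members passed, against 4.49% to 13.2%. Ikzf2 was the 1 DEG among the 5, where 1.75% of tested genes were DEGs. With PGE2 in unstimulated cells 4 of 5 passed, 2 higher and 2 lower, against 28.4% of all tested genes, 12.9% higher and 15.5% lower, and with edgeR 0 of 5 were DEGs, against 3.38%. With the block 5 of 5 passed, against 47.8% of all genes. In both comparisons 4 of 5 members had groups without overlap, which 17.9% of tested genes had in stimulated and 28.9% in unstimulated cells.

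Stimulation touched most genes of the cell, so its counts say little about the family. Without PGE2 3 of 5 members passed, 0 higher and 3 lower, against 66.5% of all tested genes, 31.7% higher and 34.8% lower. Ikzf2 was the 1 DEG, against 23.2% of tested genes, and 3 of 5 members had no overlap, against 61.6%. With PGE2 2 of 5 passed, 0 higher and 2 lower, against 64.2%, 32.5% higher and 31.7% lower. There 0 of 5 were DEGs with edgeR, against 22.1%, and 2 of 5 had no overlap, against 60.2%.

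**Figure D4:**
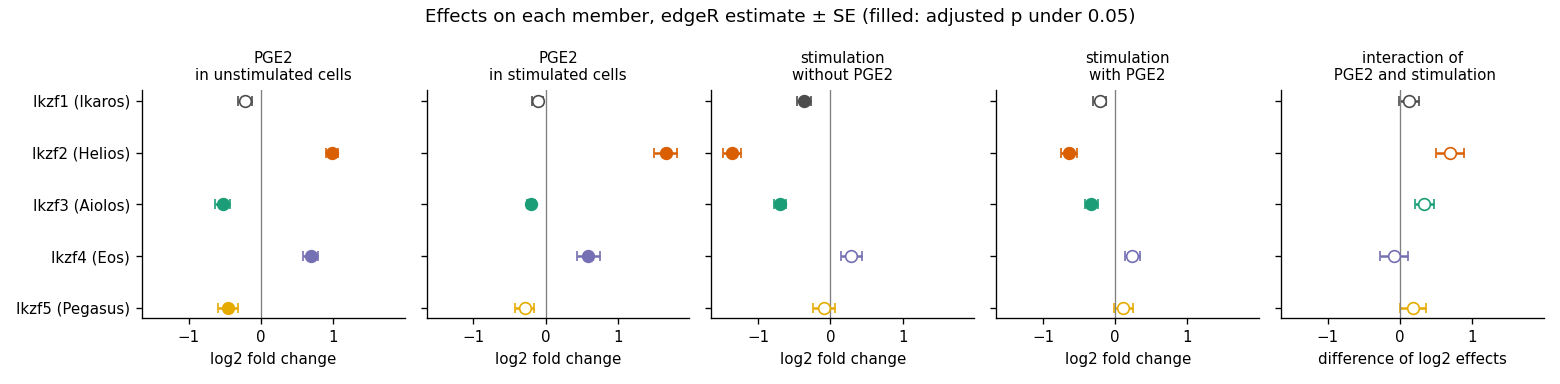
edgeR log2 fold change (points) with SE (bars) of each Ikaros family gene in the 4 pairwise comparisons of 8 samples and in the interaction over 16 samples, filled where the adjusted p is under 0.05. Ikzf2 and Ikzf4 lie to the right of 0 with PGE2 in both states, Ikzf3 to the left, and Ikzf2 runs from −1.36 with stimulation alone to 1.66 with PGE2 in stimulated cells.

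The effect of PGE2 was larger in stimulated than in unstimulated cells by 0.69 on the log2 scale for Ikzf2 (SE 0.189, edgeR unadjusted p = 0.00187). Without a block the interaction did not pass over all 15096 genes (edgeR quasi-likelihood test, adjusted p = 0.123). With the replicate number as a block it passed (edgeR adjusted p = 0.00752). For Ikzf3 the interaction was 0.34 (SE 0.131, unadjusted p = 0.0193, edgeR adjusted p = 0.381), as its fall with PGE2 was smaller in stimulated cells. Thus 0 of 5 members passed the interaction with edgeR without a block, where 0.749% of all tested genes passed, and 2 of 5 had an unadjusted p under 0.05. With DESeq2 1 of 5, Ikzf2, passed (adjusted p = 0.0207). The share of all genes with DESeq2 is not reported here, so that count has no background. Leaving out stimulated untreated replicate 4, which had the highest Ikzf2 of its group, gave an interaction of 0.83 for Ikzf2 (edgeR adjusted p = 0.0336). Over its 25 alternatives the adjusted p of Ikzf2 ran from 0.00752 to 0.442, and it passed in 4, namely DESeq2, edgeR without a filter (adjusted p = 0.0404), edgeR with the replicate number as a block (adjusted p = 0.00752) and edgeR without that sample. By the rule used here the numbers were not taken as pairs over all 4 groups, although 21 of 24 same-numbered pairs correlated over 0.1. The comparisons taken as paired do link all 4 groups, so if the numbers pair samples there, they pair them throughout. Whether the interaction of Ikzf2 passed thus depended on the use of the block. For Ikzf1, Ikzf4 and Ikzf5 the interaction was 0.12, −0.08 and 0.18 (edgeR adjusted p between 0.894 and 0.969). The positive values stand for smaller falls with PGE2 in stimulated cells, and the negative value for a smaller rise.

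Ikaros and Aiolos varied together across the samples and Helios varied apart from both. Over the 16 samples, which include the group differences, Pearson's r of log2 CPM was 0.92 between Ikzf1 and Ikzf3, and it was 0.83 for deviations from the group means. Between Ikzf1 and Ikzf2 it was 0.06, with −0.34 within groups, and between Ikzf2 and Ikzf3 it was 0.04, with −0.26 within groups. Between Ikzf2 and Ikzf4 it was 0.47, with 0.54 within groups. Ikzf4 ran against Ikzf1 and Ikzf3, with r of −0.73 and −0.76, which weakened to −0.55 and −0.40 within groups. Samples with the same replicate number deviated alike, as Ikzf1 held its highest share of the family in replicate 1 of all 4 groups, which are the samples where Ikzf2 held its lowest share.

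Likeness was ranked over 12252 genes whose mean reached 1 CPM. The gene most like Ikzf2 across the 16 samples was Ccr7, the receptor that guides naive and central memory T cells to lymph nodes, with r = 0.98 and 0.83 within groups. Gpld1 and Ccdc157 followed with r = 0.98 and 0.97. The genes most like Ikzf1 were Znrf2, Cap1 and Tmem164 (r = 0.97 each). For Ikzf3 they were St3gal6, Flna, an actin cross-linker, and 1810030O07Rik (r = 0.97 each). For Ikzf4 they were Tent5a, Nsun4 and Fn1 (r = 0.96, 0.96 and 0.95), and for Ikzf5 they were Matr3, Tdrd3 and Tgfbr1 (r = 0.92, 0.91 and 0.90). These are the highest values picked from many genes over samples that share the group differences, and they describe likeness only.

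Partners through which Ikaros factors act passed the test about as often as all genes did. Of 17 subunits of the NuRD, SIN3 and CtBP co-repressor complexes, 1 passed in stimulated cells, beside 9.84% of all genes, where the list's median log2 fold change was 0.01 and that of all genes −0.01. That gene, Chd3, a NuRD remodeller, fell by 0.29 (SE 0.0705, edgeR adjusted p = 0.0296). In unstimulated cells 5 of 16 tested subunits passed, beside 28.4% of all genes, with Rbbp7, Hdac2, Mbd3 and Mta2 lower by 0.24 to 0.56 and Sin3b higher by 0.19, and a list median of −0.04 against 0.00. Rbbp7 and Hdac2 encode a histone-binding subunit and a deacetylase that several such complexes share. None of these subunits reached a fold of 1.5, and they were named after their values were seen.

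A list of 11 genes covered the casein kinase and phosphatase that act on Ikaros proteins and a ubiquitin ligase. In human cells that ligase degrades Ikaros and Aiolos in the presence of thalidomide analogues. Of the 11 genes 1 passed in stimulated cells and 2 in unstimulated cells, beside 9.84% and 28.4% of all genes. Crbn, the substrate receptor of that ligase, was the one that passed in both, and it was also named after its values were seen. It stood at 81.9 ± 9.82 CPM in unstimulated untreated cells and 116 ± 13.7 CPM with PGE2, a rise of 0.53 on the log2 scale (SE 0.0889, edgeR adjusted p = 0.00111). In stimulated cells it went from 40.3 ± 3.73 to 54.7 ± 5.74 CPM, a rise of 0.45 (SE 0.0942, edgeR adjusted p = 0.0173). Csnk2a2, a catalytic subunit of casein kinase 2, was the other gene in unstimulated cells, higher by 0.15 (edgeR adjusted p = 0.0309).

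Most tested genes linked to Ikaros factors in lymphocytes were lower with PGE2 in unstimulated cells, and most did not pass in stimulated cells. Of 17 such genes 13 were tested in unstimulated cells, where 11 passed lower and 1 higher with a median of −0.56, beside 15.5% and 12.9% of all genes. In stimulated cells 14 were tested and 4 passed lower and 0 higher with edgeR, with a median of −0.34, beside 3.8% and 6.04% of all genes. Hes1, Ptcra and Cd4 were not tested in either, and Notch3 was not tested in unstimulated cells, for low counts. The list mixes genes that Ikaros factors are known to repress, such as Il2, with others they support, so that a direction of the list has no single reading.

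The cytokine genes of the list differed in fold but varied widely between replicates. Il2, the T cell growth factor, fell by 1.95 with PGE2 in stimulated cells (SE 0.474, edgeR adjusted p = 0.0305), from 101 ± 47.3 to 26.0 ± 16.5 CPM. In unstimulated cells Il2 was near the limit of detection, with 10 to 112 counts per untreated sample and 1 to 18 with PGE2, and it fell by 3.18 with samples that overlapped (SE 0.761, edgeR adjusted p = 0.00903). Ifng, the gene of interferon-γ, gave −1.14 in stimulated cells (SE 0.509, edgeR adjusted p = 0.184), where samples overlapped. In unstimulated cells it fell by 2.05, from 10.5 ± 10.7 to 2.46 ± 2.11 CPM (edgeR adjusted p = 0.0431), also with overlap.

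Gzmb, the gene of the cytotoxic protease granzyme B, fell by 0.91 in stimulated cells (SE 0.0684, edgeR adjusted p = 0.000109), from 5298 ± 203 to 2808 ± 155 CPM without overlap. Tbx21, the gene of the effector factor T-bet, fell by 0.41 in unstimulated cells (SE 0.0768, edgeR adjusted p = 0.00225) and gave −0.12 in stimulated cells (edgeR adjusted p = 0.805). In unstimulated cells Dtx1, a Notch target, fell by 1.32 (SE 0.329, edgeR adjusted p = 0.0111) with 22 to 84 counts per sample, and Il10 fell by 1.24 (edgeR adjusted p = 0.0450) with 3 to 18 counts. Stimulation without PGE2 raised 10 of 13 tested genes of the list and lowered 2, beside 31.7% and 34.8% of all genes, with a median of 1.76 beside −0.03 for all genes, and with PGE2 it raised 10 of 14 and lowered 2, beside 32.5% and 31.7%.

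Genes that accompany Helios and Eos in regulatory T cells did not move as a block. Foxp3, the factor that defines those cells, stood at 3.08 to 9.06 CPM in all samples and gave log2 differences of 0.03 with PGE2 in stimulated cells and −0.09 in unstimulated cells (edgeR adjusted p = 0.954 and 0.861). Of 10 tested genes, 2 passed higher and 1 lower in stimulated cells, and 3 higher and 3 lower in unstimulated cells, with list medians of 0.04 and 0.02. All genes passed at 6.04% higher and 3.8% lower in stimulated cells and at 12.9% higher and 15.5% lower in unstimulated cells. Ctla4, an inhibitory receptor, rose by 0.93 in stimulated cells (SE 0.211, edgeR adjusted p = 0.0225), from 565 ± 174 to 1076 ± 176 CPM. In unstimulated cells Ctla4 rose by 0.58 (SE 0.0822, edgeR adjusted p = 0.000374). Nrp1, a semaphorin co-receptor, fell by 0.96 in stimulated cells (edgeR adjusted p = 0.0355) and by 0.72 in unstimulated cells (edgeR adjusted p = 0.00776).

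In unstimulated cells Tigit, an inhibitory receptor, rose by 0.96 (SE 0.168, edgeR adjusted p = 0.00141), and Tnfrsf18, which encodes GITR, rose by 0.86 (SE 0.167, edgeR adjusted p = 0.00273). Besides Nrp1, Il2ra fell there by 0.56 (SE 0.167, edgeR adjusted p = 0.0272), with overlap. Lrrc32 fell by 0.47 (SE 0.0812, edgeR adjusted p = 0.00128), without overlap. Il2ra and Lrrc32 were named after their values were seen. In stimulated cells, where samples overlapped, Tnfrsf18 rose by 0.41 (SE 0.102, edgeR adjusted p = 0.0332) and Tigit gave 0.40 (SE 0.122, edgeR adjusted p = 0.0652). Stimulation without PGE2 raised 7 of 10 tested genes of this list and lowered 1, beside 31.7% and 34.8% of all genes. With edgeR none of the genes of any of the 4 lists passed the interaction, at any list size from 10 to 17 tested genes. The lists were drawn up with earlier results of these samples known, and Il2ra stands in 2 of them.

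**Figure D5:**
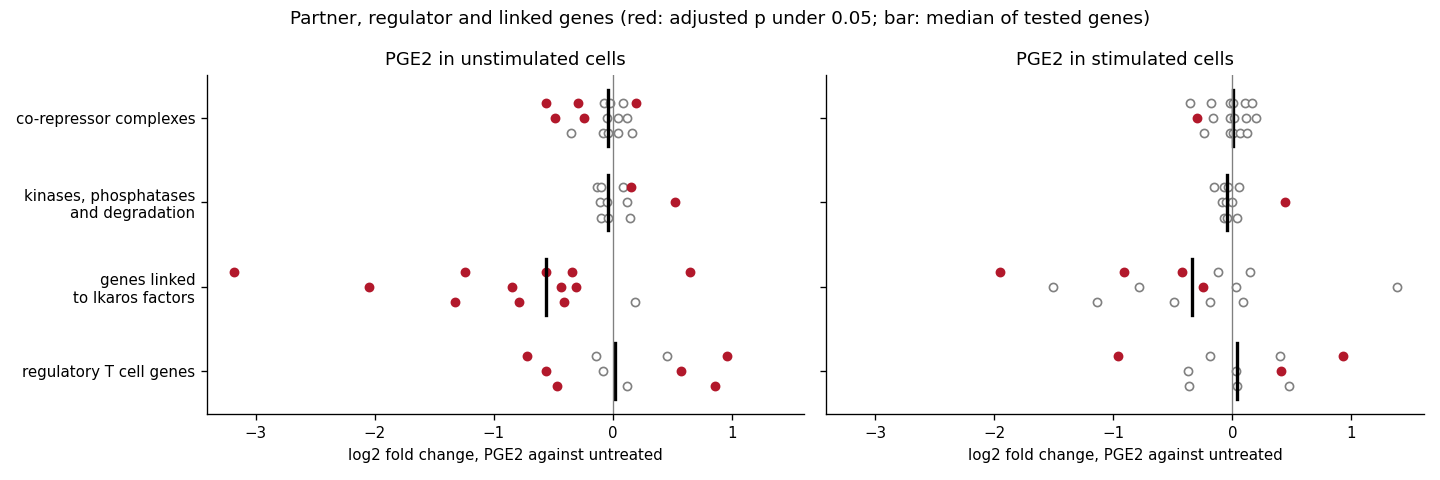
edgeR log2 fold change with PGE2 of each tested gene of the 4 lists (points, red where the adjusted p is under 0.05) and the list median (black bar), in unstimulated cells (left) and stimulated cells (right), 8 samples each. The linked genes sit mostly left of 0, with medians of −0.56 and −0.34, while the medians of the other lists lie between −0.05 and 0.04.

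Markers of other cell types were checked in every sample. The summed CPM of the 7 CD8+ T cell markers ran from 2852 to 4833. Cd4 was at most 1.87 CPM, and the 3 markers of CD4+ and regulatory T cells summed to 26.9 to 34.4 CPM in unstimulated untreated, 28.6 to 40.1 in unstimulated PGE2, 16.9 to 22.5 in stimulated untreated and 14.5 to 26.6 in stimulated PGE2 samples, most of it from Zbtb7b. The 5 B cell markers, of interest because B cells express Ikaros and Aiolos, summed to 0.881 to 6.53 CPM over the 16 samples with overlapping ranges in all groups, and 3 of them stayed under 1 CPM in each sample. All 6 plasmacytoid and myeloid markers stayed under 1 CPM, with Siglech at 0, and the 4 erythroid markers too, with Hbb-bs at 0. Of the NK cell markers Ncr1 was at 0, while Eomes, which activated CD8+ T cells also express, ran from 5.54 to 178 CPM and was higher in stimulated samples. The part of other cells in the levels of the family was not tested.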

How the data were processed

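RNA-seq of 16 samples was analysed, 4 in each of 4 groups given by the labels. The authors isolated total RNA, selected poly(A) RNA, sequenced it in paired-end mode, aligned reads to GRCm38/mm10 with HISAT2 2.0.5 and counted them with featureCounts 1.5.0-p3. The count table deposited by the authors holds raw whole-number counts. A further table deposited by the authors holds FPKM, scaled by gene length, used here to compare levels between genes. The annotation release and strand setting are not given in the sources used here, and 0 further columns of sample values were present. Summed counts were 22678254 to 42950763 per sample (median 30211840.5), and the number of replicates limits the precision.

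Differences were tested on counts in edgeR (version 4.0.16, R version 4.3.3) after filterByExpr (minimum count 10) and TMM scaling (factors 0.880 to 1.09), by glmQLFit and a two-sided glmQLFTest, with Benjamini-Hochberg adjustment over the 13922 to 15096 genes tested. Pairwise fits held 8 samples and the interaction fit held 16, without covariates. SE was the log2 fold change divided by the square root of F. CPM used TMM factors of all 16 samples. Scripts were tested on simulated data. Finger codons were read from GENCODE M21 coding sequences on GRCm38, whose spans of the 5 genes equal those of the count table, as in-frame cysteine and histidine codons at C2H2 spacing. The bases of the other fingers are not reported here.

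The members, gene lists, markers and rules were chosen with earlier results of these data known. All 5 members were named in each comparison. From each list, genes that passed with PGE2 at a fold of at least 1.5 were named, at most 4 per list and comparison, besides Il2, Ifng, Tbx21 and Foxp3, the 3 genes most correlated with each member, and genes overlapping a member. Co-repressor, kinase, degradation and regulatory T cell genes that passed at a smaller fold were named after their values were seen. Gene lists were described by counts and medians, without a set test.

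The labels do not say what a replicate number marks. Deviations of same-numbered samples from their group means correlated in 4 of 4 pairs at r over 0.1 for PGE2 in stimulated cells (0.19 to 0.42), PGE2 in unstimulated cells (0.14 to 0.44) and stimulation without PGE2 (0.11 to 0.36), so the numbers were taken to pair the samples there, and the fit with the number as a block is given beside a result where it changed the call. For stimulation with PGE2 and over all 4 groups (21 of 24 pairs over 0.1) they were not, although the comparisons taken as paired link all 4 groups. Over all 4 groups same-numbered r nonetheless ran from 0.0439 to 0.444, with a median of 0.242 against −0.0817 for other pairs. Pairs of unlike number reached 0.250 for PGE2 in stimulated cells and 0.125 for stimulation without PGE2, above the lowest same-numbered r there. For PGE2 in stimulated cells 6 of 8 samples correlated best with their own number. It was 8 of 8 for PGE2 in unstimulated cells and for stimulation without PGE2. Alternatives were DESeq2 1.42.0, RLE or upper-quartile factors, other filters, limma 3.58.1 with a trend on log2(FPKM + 1) or log2(FPKM + 0.1), a block for the replicate number, a joint fit of the 16 samples, and leave-one-out fits.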

Additional observations from a re-analysis of the deposited data

Results flagged for a closer look

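In unstimulated PGE2 cells Ikzf4 stood at 35.0 CPM in replicate 4, apart from the other 3 samples, which lay between 32.1 and 32.2 CPM. The gap was 0.962 of the group's range, above the critical value of 0.829 that Dixon's test sets for 4 samples. Chance gives about 1 such sample in 20 groups, and 20 groups of 4 were checked here. The call of Ikzf4 in unstimulated cells was the same without that sample.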

How the results depend on the processing

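Of 475 alternative values of single members, 425 kept their direction and side of the threshold, 27 lost the call, 20 gained it and 3 turned sign. Those were Ikzf5 with stimulation without PGE2 (−0.17 to 0.015 when 1 sample was left out, above 0 without unstimulated untreated replicate 1), Ikzf5 with stimulation with PGE2 (−0.013 under upper-quartile factors) and Ikzf4 in the interaction (−0.20 to 0.020 when 1 sample was left out, above 0 without stimulated untreated replicate 4). None of these had passed. Upper-quartile factors put the median of all genes at −0.13 for stimulation with PGE2, against 0.00. With PGE2 in stimulated cells the number of members past the test, 3, was 1 under limma on log2(FPKM + 1) without a filter and 1 to 2 when 1 sample was left out. The share of all genes that passed there moved too, from 9.84% to 2.62% under that limma fit and to between 4.49% and 13.2% with 1 sample left out. With stimulation with PGE2 it was 2 to 4 when 1 sample was left out, and 4 without stimulated PGE2 replicate 1. In the interaction it was 1 in place of 0 with DESeq2, without a filter (Ikzf2 adjusted p = 0.0404) and with the replicate block (Ikzf2 edgeR adjusted p = 0.00752), and 0 to 1 when 1 sample was left out. The cause was not tested. For stimulation with PGE2 with 1 sample left out, and for the interaction under its alternatives, the shares of all genes are not reported here. Those counts therefore say little about the family. For stimulation with PGE2 only 2 of 4 same-numbered pairs correlated over 0.1 and 5 of 8 samples correlated best with their own number, so the numbers were not taken as pairs there. The replicate block gave 3 members in place of 2, adding Ikzf1 (edgeR adjusted p = 0.0130), against 67.5% of all genes in place of 64.2%. Beyond those and the calls given beside their results, the block changed no call. As a share of summed CPM, which does not allow for gene length, Ikzf2 held 16.4%, 31.4%, 9.18% and 25.2% of the family in unstimulated untreated, unstimulated PGE2, stimulated untreated and stimulated PGE2 cells. On that scale Ikzf1 held 49.5% to 71.9% per sample, and Ikzf2 stood above Ikzf3 in all 8 PGE2 samples and in unstimulated untreated replicate 4. Ikzf5, with the fewest counts, is the member that depth limits most.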
